A study of Mus musculus with 7 samples.

Results

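The genes described here are the Notch receptors and ligands of the mouse other than Notch4, chosen by name: the 3 receptor genes Notch1, Notch2 and Notch3, the Jagged ligand genes Jag1 and Jag2, and the Delta-like ligand genes Dll1, Dll3 and Dll4. They are 8 of the 32285 genes in the count files, and all 8 passed the filter on low counts that left 17155 genes for testing. RNA was sequenced from cultured utricles, balance organs of the inner ear that hold hair cells on a layer of supporting cells, taken from WT mice at postnatal day 2. Every utricle was damaged with gentamicin, an aminoglycoside antibiotic that kills hair cells, so no uninjured sample enters any comparison. In Gent+Fos OE (4 libraries) the explants also received the adeno-associated virus AAV-PHP.eB carrying Fos, which per the study's methods was driven by a CMV promoter and so was not limited to one cell type. The Gent group (3 libraries) is labelled as the gentamicin control. The study speaks in places of a control virus carrying EGFP for its control explants, also where it shows this sequencing, while the labels name gentamicin alone. Whether these libraries received it is not settled, so an effect of the virus and one of Fos cannot be told apart. The names of its count files moreover hold letters that can stand for shRNA, and the study also made a virus that knocks Fos down, so it is the label alone that makes Gent the control in each fold change below. Each library came from 12 pooled utricles, and its replicates are separate pools.

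Notch receptors are cell-surface proteins that are cut when a ligand on a neighbouring cell pulls on them, after which the intracellular part enters the nucleus and, with RBPJ and Mastermind-like proteins, switches on targets of the Hes and Hey families. In the sensory patches of the inner ear, Jag1 and Notch1 mark the prosensory and supporting cells, and nascent hair cells carry Delta-like ligands and Jag2 that keep their neighbours from becoming hair cells. Notch3 is best known from mural cells around vessels, and Dll4 from endothelium. Fos encodes a subunit of the transcription factor AP-1.

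Library totals ran from 27879889 to 34335214 counts. Fos, the overexpressed gene, measured 149 to 167 CPM (counts scaled to a common library size by TMM) with the virus and 34.6 to 40.6 CPM in the Gent libraries, as the labels state. Gent replicate 2 stood apart: the deviation of its genes from their mean over the libraries had a Spearman's rho with gene length of -0.496, against -0.221 to 0.325 in the other 6 libraries (a description across genes, which are not independent replicates). This bears on the Notch genes because 6 of the 8 are longer than the median tested gene (4084 bp of exon), with Notch1 at 14232 bp and Notch2 at 10782 bp, and because 4 of the 8 had their lowest value of all libraries in Gent replicate 2. Fold changes of the 8 genes are therefore given for all 7 libraries, without that library, and, in the plot of fold changes for all 8 and in the text where the value moves, after the trend with gene length was taken out of each library.

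On mm10, Notch1 (ENSMUSG00000026923) lies on the minus strand of chromosome 2 from 26457903 to 26516663. Notch2 (ENSMUSG00000027878) lies on the plus strand of chromosome 3 from 98013527 to 98150361. Notch3 (ENSMUSG00000038146) lies on the minus strand of chromosome 17 from 32120820 to 32166852. The ligand gene Jag1 (ENSMUSG00000027276) lies on chromosome 2 from 137081456 to 137116644 and Jag2 (ENSMUSG00000002799) on chromosome 12 from 112907819 to 112929776, both on the minus strand. Dll1 (ENSMUSG00000014773) lies on the minus strand of chromosome 17 from 15367354 to 15376872 and Dll3 (ENSMUSG00000003436) on the minus strand of chromosome 7 from 28293553 to 28302238. Dll4 (ENSMUSG00000027314) lies on the plus strand of chromosome 2 from 119325784 to 119335962. Part of the exonic sequence is shared with an overlapping gene in Notch1 (9.76%, with 0610009E02Rik and Gm13568), Notch3 (6.03%, with Gm17276) and Dll4 (5.56%, with Gm14207). The counting used no strand, so reads from those stretches could not be assigned to one gene and were left out of the counts.

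The 250 bases before each start site in RefSeq were read for the 8 genes (9 windows, as Dll1 has 2 start sites) and searched on both strands for the AP-1 site TGANTCA, the cyclic AMP response element TGACGTCA, the RBPJ site GTGGGAA and the GC box GGGCGG. The windows of the 3 receptor genes are shown to set the 3 paralogs side by side, and the second Dll1 window because it holds the only AP-1 match. Each is written 5′ to 3′ along the gene's strand, ends at the base before the start site, and has the matches in capitals. The windows are chr2:26503823-26504072 for Notch1, chr3:98013288-98013537 for Notch2, chr17:32166891-32167140 for Notch3 and chr17:15376933-15377182 for Dll1 (GRCm38, RefSeq). The Notch1 window lies inside the gene as counted, which reaches 12841 bp past this RefSeq start and has 282 bp of exon upstream of it.
Notch1: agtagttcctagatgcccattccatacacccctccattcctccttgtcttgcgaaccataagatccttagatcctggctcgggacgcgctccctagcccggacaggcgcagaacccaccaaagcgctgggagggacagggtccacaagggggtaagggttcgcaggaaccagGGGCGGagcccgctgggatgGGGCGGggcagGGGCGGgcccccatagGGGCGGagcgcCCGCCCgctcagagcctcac
Notch2: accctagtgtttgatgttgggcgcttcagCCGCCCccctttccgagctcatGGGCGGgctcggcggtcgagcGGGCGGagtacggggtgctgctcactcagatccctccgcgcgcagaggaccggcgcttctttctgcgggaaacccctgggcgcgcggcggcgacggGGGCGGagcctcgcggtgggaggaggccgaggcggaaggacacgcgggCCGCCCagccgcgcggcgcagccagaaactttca
Notch3: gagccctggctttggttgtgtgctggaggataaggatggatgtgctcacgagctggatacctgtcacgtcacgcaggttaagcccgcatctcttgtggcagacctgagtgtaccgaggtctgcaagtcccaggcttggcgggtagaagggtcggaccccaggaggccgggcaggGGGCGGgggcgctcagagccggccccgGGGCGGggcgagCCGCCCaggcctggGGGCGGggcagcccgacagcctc
Dll1, second start: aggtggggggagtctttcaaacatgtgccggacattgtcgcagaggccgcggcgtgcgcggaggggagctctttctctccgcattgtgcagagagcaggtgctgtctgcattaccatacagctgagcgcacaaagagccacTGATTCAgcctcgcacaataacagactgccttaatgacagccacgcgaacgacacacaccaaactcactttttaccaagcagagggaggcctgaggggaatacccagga
The capitals in the receptor windows are GC boxes on either strand, 5 in Notch1, 5 in Notch2 and 4 in Notch3. Of the 32851 windows of this length in the table, 32.742% held a GC box. The capitals in the Dll1 window are the AP-1 match, which begins 109 bases before that start site; 6.749% of all windows held such a match. No window of the 8 genes held the cyclic AMP element (1.546% of all windows) or the RBPJ letters (5.415%), which says only that these letters are not in these 250 bases. The receptor windows were rich in G and C, at 66.0% in Notch1, 72.0% in Notch2 and 68.8% in Notch3 against a median of 52.4% over all windows, and Jag2 had the richest at 87.2%.

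Of the receptor genes, Notch1 and Notch3 measured higher in every Gent+Fos OE library than in any Gent library, and Notch2 did not. Notch1, the receptor that acts in lateral inhibition between hair cells and supporting cells, measured 221, 249, 171 and 163 CPM in Gent+Fos OE replicates 1 to 4 and 127, 73.5 and 117 CPM in Gent replicates 1 to 3. The lowest Gent+Fos OE library thus lay above the highest Gent library, and the lowest value of all was that of Gent replicate 2. The group means were 200.6 ± 41.0 (SD, n = 4) and 106 ± 28.6 CPM (SD, n = 3). The log2 fold change of Notch1 was 0.92 (SE 0.22, 95% interval 0.45 to 1.40, edgeR adjusted p = 0.0597). The exact permutation test gave p = 0.0286, the smallest that the 35 splits of 7 libraries allow. Without Gent replicate 2 the log2 fold change of Notch1 was 0.71 (edgeR adjusted p = 0.0451), and with the gene length trend removed it was 0.55 (adjusted p = 0.0501). Without Gent replicate 1 it was 1.07 (edgeR adjusted p = 0.0321), and leaving out any other library gave an adjusted p from 0.0680 to 0.161. In these whole explants, more cells of a type and more RNA per cell cannot be told apart.

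Notch3 measured 119, 118, 91.9 and 80.1 CPM in Gent+Fos OE and 58.3, 50.5 and 56.6 CPM in the Gent libraries. The groups did not overlap, and the Gent libraries lay close together. The means were 102 ± 19.4 (SD, n = 4) and 55.1 ± 4.07 CPM (SD, n = 3). The log2 fold change of Notch3 was 0.89 (SE 0.16, 95% interval 0.53 to 1.25), and its edgeR adjusted p of 0.0247 was the lowest of the 8 genes, with an exact permutation p of 0.0286. It was 0.83 without Gent replicate 2 (edgeR adjusted p = 0.0197) and 0.69 with the length trend removed (adjusted p = 0.0247). With 1 other library left out the edgeR adjusted p was 0.0909, 0.0719, 0.0712 and 0.0208 for Gent+Fos OE replicates 1 to 4 and 0.0277 and 0.0810 for Gent replicates 1 and 3, at log2 fold changes of 0.81 to 0.99. The 10 listed markers of mural cells, the cells in which Notch3 is best known, added up to 284 to 460 CPM in Gent+Fos OE and 478 to 752 CPM in Gent, and the sums differed through 1 gene, Acta2 (smooth muscle actin, log2 fold change -1.35, edgeR adjusted p = 0.0250). The other 9 markers added up to 183 ± 21.1 (SD, n = 4) and 182 ± 36.4 CPM (SD, n = 3). EdgeR called none of the list and DESeq2 called Acta2 alone, where it called 3.9% of the genes it tested. Of the 9 tested markers, 5 were higher, with a median log2 fold change of 0.32 over the 9. Of those higher, Abcc9, a channel subunit of pericytes, stood at 0.69 (edgeR adjusted p = 0.151). Abcc9 was at 0.51 with the length trend removed and at 0.50 without Gent replicate 2. Those lower were Acta2, Des (-0.27), Pdgfrb (-0.06) and Kcnj8 (-0.02). The part of mural cells in the Notch3 difference was not tested.

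Notch2, the paralog closest to Notch1 in length, measured 158, 141, 130 and 133 CPM in Gent+Fos OE and 166, 61.5 and 110 CPM in Gent. The highest and the lowest of the 7 values were both Gent libraries, so the groups overlapped throughout. The means were 141 ± 12.5 (SD, n = 4) and 113 ± 52.5 CPM (SD, n = 3). For Notch2 the log2 fold change was 0.32 (SE 0.26, 95% interval -0.26 to 0.90, edgeR adjusted p = 0.456, exact permutation p = 0.257). Without Gent replicate 2 it was 0.02 (SE 0.15), and with the length trend removed 0.09 (SE 0.17). Without Gent replicate 1 it was 0.71 (SE 0.21, edgeR adjusted p = 0.0549), so the size of the difference rested on which Gent libraries were kept.

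**Figure D1:**
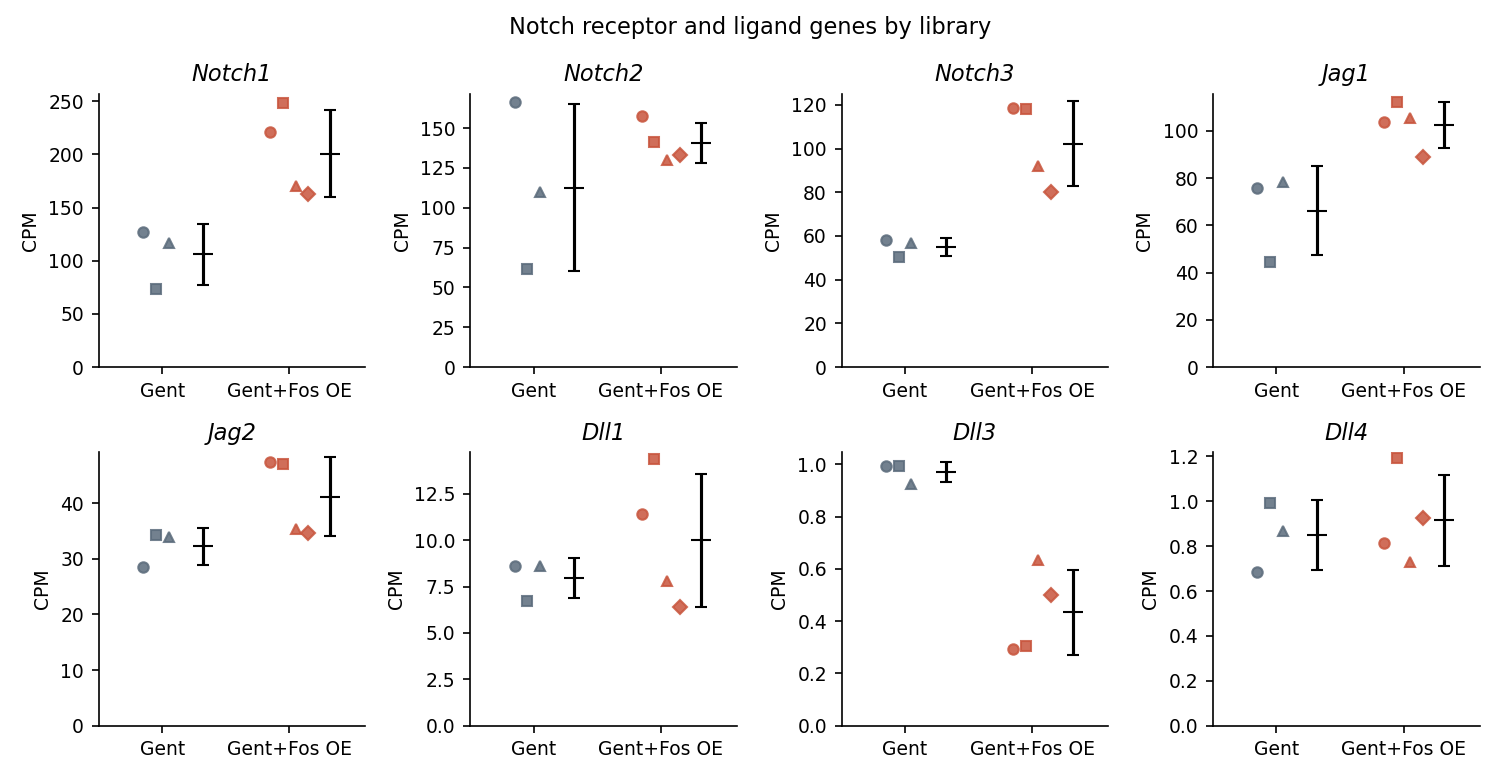
Expression of the 8 genes in each library, as TMM-normalized CPM (linear axes from 0, a scale of its own per gene). Circles, squares, triangles and diamonds are replicates 1, 2, 3 and 4, and the black marks are the mean ± SD of the 4 Gent+Fos OE and 3 Gent libraries; the groups do not overlap for Notch1, Notch3, Jag1, Jag2 and Dll3, and Gent replicate 2 (grey square) is the lowest point for Notch1, Notch2, Notch3 and Jag1.

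Both Jagged genes measured higher in Gent+Fos OE, and their ratio did not separate the groups. Jag1, the ligand of the prosensory domain and of supporting cells, measured 104, 112, 105 and 89.1 CPM in Gent+Fos OE and 76.0, 44.6 and 78.2 CPM in Gent. The groups did not overlap, with a gap between 78.2 and 89.1 CPM. The means were 103 ± 9.78 (SD, n = 4) and 66.3 ± 18.8 CPM (SD, n = 3). The log2 fold change of Jag1 was 0.63 (SE 0.19, 95% interval 0.21 to 1.05, edgeR adjusted p = 0.109, exact permutation p = 0.0286). Leaving out Gent replicate 2 brought it to 0.41 (SE 0.11, edgeR adjusted p = 0.0674), and removing the length trend to 0.55 (adjusted p = 0.0738).

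Jag2, a ligand of nascent hair cells, measured 47.4, 47.0, 35.4 and 34.7 CPM in Gent+Fos OE and 28.4, 34.3 and 33.9 CPM in Gent. The groups all but touched: Gent+Fos OE replicate 4 lay just above Gent replicate 2. The means were 41.1 ± 7.04 (SD, n = 4) and 32.2 ± 3.26 CPM (SD, n = 3). The log2 fold change of Jag2 was 0.35 (SE 0.16, 95% interval 0.01 to 0.70, edgeR adjusted p = 0.200, exact permutation p = 0.143). It was 0.39 without Gent replicate 2 and 0.19 with the length trend removed.

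The Delta-like genes followed neither pattern: Dll3 measured lower in Gent+Fos OE, and Dll1 and Dll4 did not separate the groups. Dll1, the ligand classically tied to lateral inhibition, measured 11.4, 14.4, 7.82 and 6.42 CPM in Gent+Fos OE and 8.59, 6.70 and 8.61 CPM in Gent. Gent+Fos OE replicates 1 and 2 lay above every Gent library, and replicate 4 of the same group was the lowest of the 7. The log2 fold change of Dll1 was 0.33 (SE 0.27, 95% interval -0.26 to 0.92, edgeR adjusted p = 0.447, exact permutation p = 0.514), and 0.21 without Gent replicate 2. It was 0.10 without Gent+Fos OE replicate 2 and 0.49 without Gent+Fos OE replicate 4.

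Dll3, a divergent family member that acts inside the cell and does not activate Notch on its neighbours, was close to the limit of detection, at 9, 10, 20 and 14 counts in Gent+Fos OE replicates 1 to 4 and 29, 31 and 32 counts in Gent replicates 1 to 3. These are 0.293, 0.306, 0.633 and 0.499 CPM against 0.993, 0.994 and 0.925 CPM. Every Gent library thus lay above every Gent+Fos OE library, and Dll3 was the only one of the 8 genes with a negative log2 fold change. That change was -1.16 (SE 0.43, 95% interval -2.11 to -0.21, edgeR adjusted p = 0.153, exact permutation p = 0.0571), and -1.15 without Gent replicate 2.

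Dll4, a ligand best known from endothelium, was as scarce, at 25, 39, 23 and 26 counts in Gent+Fos OE and 20, 31 and 30 counts in Gent. In CPM these are 0.814, 1.19, 0.728 and 0.927 against 0.685, 0.994 and 0.867, and the groups overlapped. The log2 fold change of Dll4 was 0.11 (SE 0.38, edgeR adjusted p = 0.878, exact permutation p = 0.714), with a 95% interval from -0.73 to 0.95 that at this depth leaves room for a difference of either sign. Its sign turned when Gent+Fos OE replicate 2 (log2 fold change -0.049) or Gent replicate 1 (-0.021) was left out. The 10 endothelial markers added up to 135 to 182 CPM in Gent+Fos OE and 146 to 211 CPM in Gent. Over the 9 tested, 4 were higher and the median log2 fold change was -0.08. EdgeR called none of them and DESeq2 called 1, Flt1 (VEGF receptor, edgeR log2 fold change 2.04, edgeR adjusted p = 0.0281), with Flt1 and Cdh5 (VE-cadherin, 0.77, edgeR adjusted p = 0.0876) the ones that did not overlap between the groups. The part of endothelium in the values of Dll4 was not tested.

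Counted over the 8 genes, 7 had a positive log2 fold change, where 49.9% of all tested genes did. The groups did not overlap, higher in Gent+Fos OE, for 4 of the 8 (Notch1, Notch3, Jag1 and Jag2), against 11.3% of all tested genes, and lower for 1 (Dll3), against 12.2%. The same 4 and the same 1 had an unadjusted edgeR p under 0.05, as did 11.1% of tested genes in the higher direction and 13.4% in the lower. The genes were picked by name with earlier results of these data known, so these counts are a description. At the study's limits (adjusted p under 0.01 and absolute log2 fold change over 0.25), edgeR called 0 of the 8, where it called 0.414% of all tested genes. DESeq2 called 2 of the 8, Notch1 (log2 fold change 0.93, adjusted p = 0.00166) and Notch3 (0.90, adjusted p = 3.55e-05), where it called 3.9% of the genes it tested, 1.75% higher and 2.14% lower. At an edgeR adjusted p under 0.05, Notch3 alone of the 8 passed, in the fit of all 7 libraries and in that with the length trend removed.

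**Figure D2:**
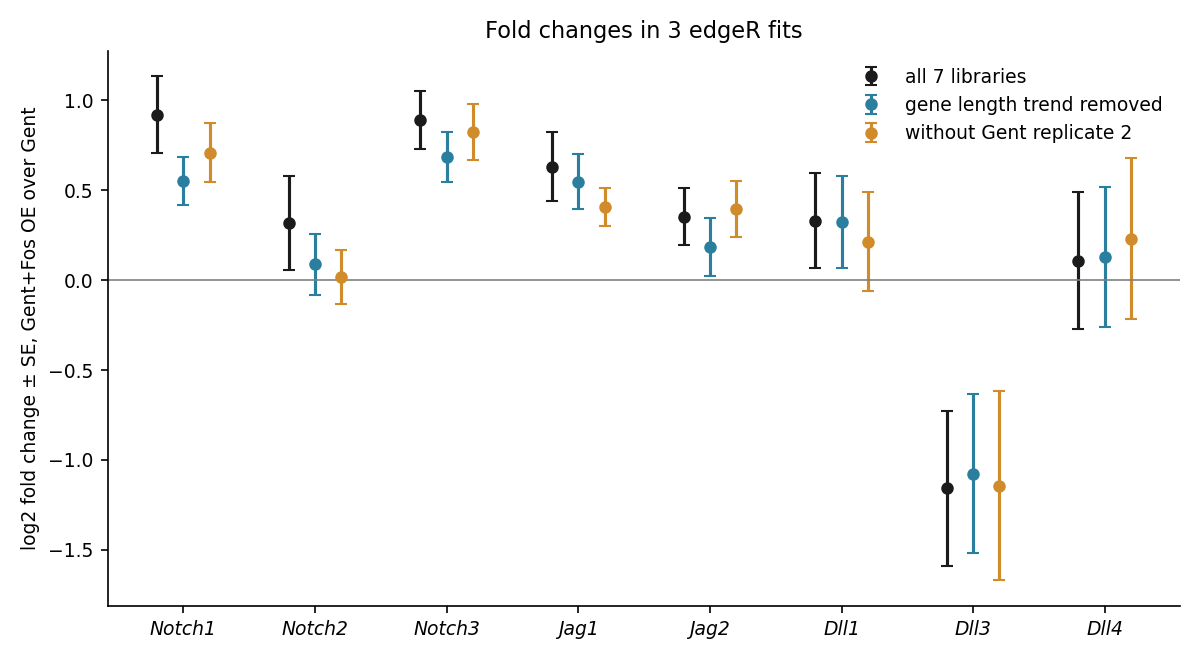
Log2 fold change of each gene, Gent+Fos OE over Gent, with its SE, from edgeR on all 7 libraries (black), after the gene length trend was taken out (blue) and without Gent replicate 2 (orange). Notch1 goes from 0.92 to 0.55 and 0.71 and Notch2 from 0.32 to 0.09 and 0.02, whereas Notch3 (0.89, 0.69 and 0.83) and Dll3 (-1.16, -1.08 and -1.15) move less.

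To compare the levels of the paralogs with each other, CPM were divided by the length of each gene's exons. Jag1 had the highest level of the 8, with 17.6 ± 1.68 CPM per kb in Gent+Fos OE (SD, n = 4) and 11.4 ± 3.23 CPM per kb in Gent (SD, n = 3). It stood first in 6 of the 7 libraries, and in Gent replicate 1 Notch2 stood above it. The receptor levels came next and close together. In Gent+Fos OE they were 14.1 ± 2.88 CPM per kb for Notch1, 13.0 ± 1.16 for Notch2 and 12.6 ± 2.40 for Notch3 (SD, n = 4). In Gent, Notch2 led at 10.4 ± 4.86 CPM per kb, followed by Notch1 at 7.44 ± 2.01 and Notch3 at 6.82 ± 0.503 (SD, n = 3).

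The remaining ligands were at lower levels. Jag2 stood at 5.91 ± 1.01 CPM per kb in Gent+Fos OE and 4.62 ± 0.468 in Gent, and Dll1 at 2.37 ± 0.851 and 1.89 ± 0.260. The levels of Dll4 (0.238 ± 0.0526 and 0.220 ± 0.0403 CPM per kb) and Dll3 (0.152 ± 0.0573 and 0.340 ± 0.0139) were lower again. Ordered by the mean of log2 levels over the 7 libraries, 7 pairs of neighbours were compared within libraries by an exact sign-flip permutation test, with adjustment over the 7 pairs. The pairs and their direction came from the order of these same levels, so the p-values describe the order and are not an independent test of it. Notch3 exceeded Jag2, Jag2 exceeded Dll1 and Dll1 exceeded Dll4 in 7 of 7 libraries each, by 0.86, 1.33 and 3.11 on the log2 scale (adjusted p = 0.0365 for each pair, exact test). The other 4 pairs missed the adjusted threshold of 0.05. Jag1 lay above Notch2 in 6 of 7 libraries, by 0.33 ± 0.28 on the log2 scale (SD, adjusted p = 0.0547, exact test), a difference larger than its SD. The last 3 differed by less than their SD: Notch2 over Notch1 (0.12, adjusted p = 0.492, exact test), Notch1 over Notch3 (0.13, adjusted p = 0.175) and Dll4 over Dll3 (0.06, adjusted p = 0.844). Dll4 stood above Dll3 in 3 of the 4 Gent+Fos OE libraries and in 0 of the 3 Gent libraries.

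The top of this order depends on the length used. With the longest GENCODE transcript of each gene (9488 bp for Notch1 in place of 14232 bp of summed exons), Notch1 came first in Gent+Fos OE at 21.1 CPM per kb and came second to Jag1 in Gent, at 11.2 against 11.5. When the bases shared with overlapping genes, whose reads were not counted, were left out of the exon length (a choice made after seeing the data), Notch1 stood above Notch2 by 0.025 on the log2 scale over the 7 libraries, and in Gent+Fos OE Notch3 (13.5 CPM per kb) above Notch2 (13.0). The same 3 pairs, Notch3 over Jag2, Jag2 over Dll1 and Dll1 over Dll4, passed with that length. With the longest transcript 0 of the 7 neighbour pairs passed, and Jag2 over Dll1 remained higher in 7 of 7 libraries (1.70 on the log2 scale, adjusted p = 0.0547, exact test). Notch3 over Jag2 fell to 0.44 on the log2 scale, in 6 of 7 libraries (adjusted p = 0.0547, exact test). The lower neighbour of Dll1 was then Dll3 in place of Dll4.

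**Figure D3:**
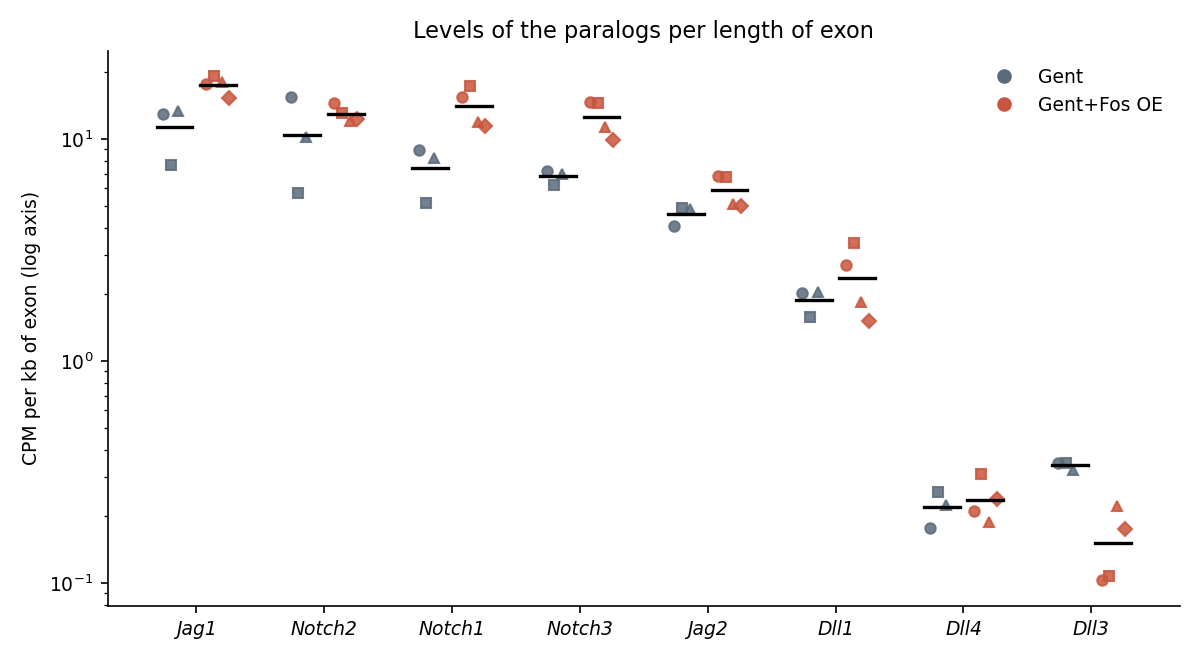
Level of each gene as CPM per kb of exon (log axis), in the order of the mean log2 level over the 7 libraries, with Gent in grey and Gent+Fos OE in red. Circles, squares, triangles and diamonds are replicates 1, 2, 3 and 4 and bars the group means; Jag1 and the receptors lie within 1 band at the top, Jag2 and Dll1 below, and Dll4 and Dll3 lowest.

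Summed per kb, the 3 receptor genes came to 44.8, 45.2, 35.4 and 33.7 CPM per kb in the Gent+Fos OE libraries and 31.6, 17.1 and 25.4 in the Gent libraries. The 5 ligand genes came to 27.6, 29.8, 25.4 and 22.2 CPM per kb against 19.7, 14.8 and 20.9. Neither sum overlapped between the groups, also without Gent replicate 2, the lowest library in both. The ratio of the ligand sum to the receptor sum was 0.664 ± 0.0419 (SD, n = 4) in Gent+Fos OE and 0.769 ± 0.128 (SD, n = 3) in Gent, with overlapping ranges of 0.616 to 0.718 and 0.623 to 0.862.

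The share of Notch1 in the receptor sum did not overlap between the groups, and those of Notch2 and Notch3 did. Notch1 made up 35.3% ± 2.28 of it in Gent+Fos OE (SD, n = 4) and 30.3% ± 1.99 in Gent (SD, n = 3), Notch2 33.1% ± 3.18 and 40.8% ± 7.77, and Notch3 31.6% ± 1.51 and 28.9% ± 6.95. Of the ligand sum, Jag1 made up 67.2% ± 3.31 and 60.8% ± 7.82, Jag2 22.4% ± 1.92 and 25.8% ± 6.64, and Dll1 8.84% ± 2.15 and 10.3% ± 0.492. Dll4 made up 0.908% ± 0.179 and 1.24% ± 0.446, and Dll3 0.598% ± 0.271 and 1.89% ± 0.418.

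**Figure D4:**
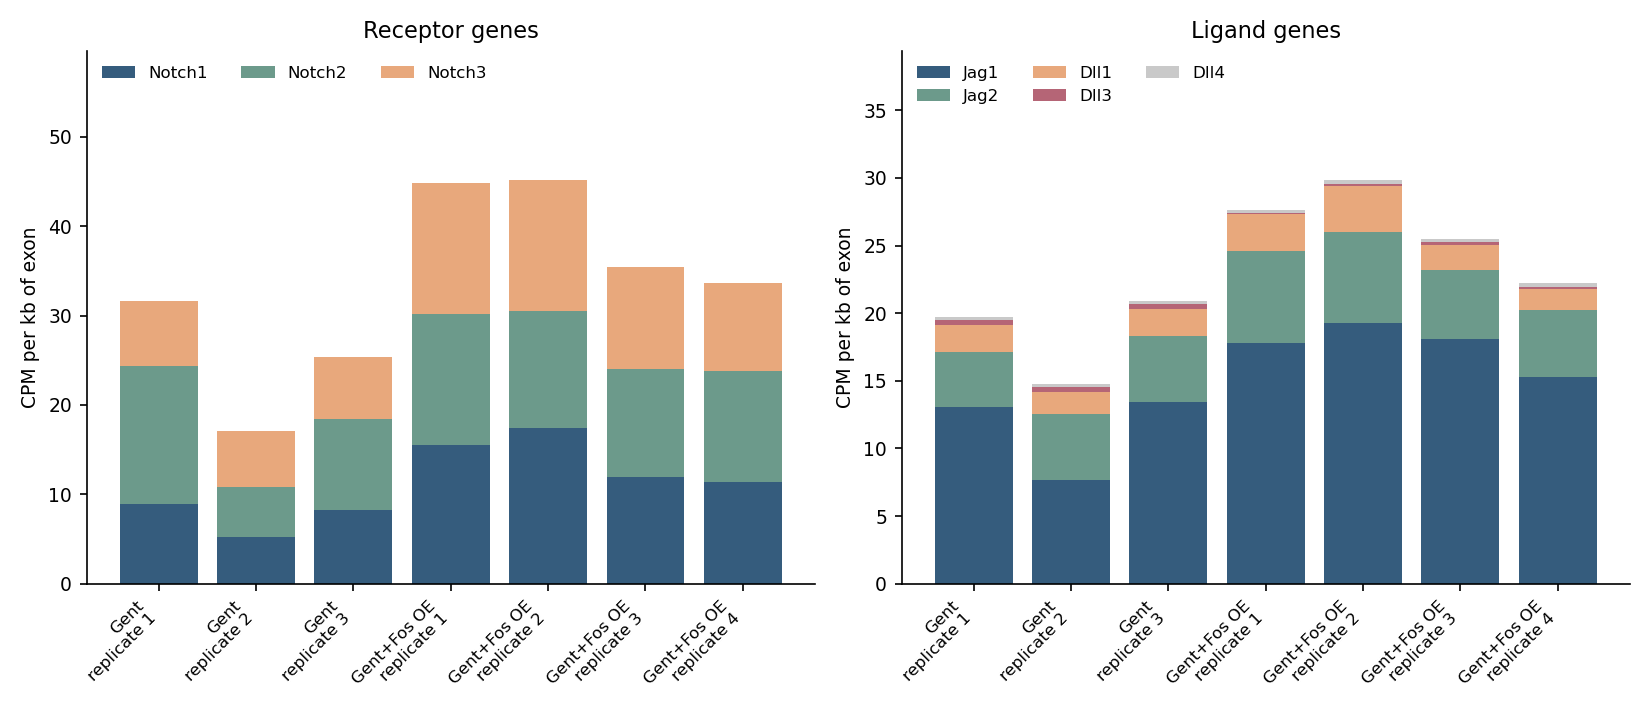
Stacked levels of the receptor genes (left) and ligand genes (right) in each library, as CPM per kb of exon from 0, 1 bar per library. Receptor sums run from 17.1 in Gent replicate 2 to 45.2 in Gent+Fos OE replicate 2 and ligand sums from 14.8 to 29.8 in the same libraries, and Jag1 is the largest ligand part of every bar.

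Ratios between paralogs within a library cancel its scaling, and 8 such ratios were compared. Notch1 over Notch2 in CPM was 1.40, 1.76, 1.31 and 1.22 in Gent+Fos OE and 0.766, 1.19 and 1.06 in Gent. The groups did not overlap, and the mean log2 ratio was higher by 0.51 in Gent+Fos OE (exact permutation p = 0.0286, adjusted over the 8 ratios p = 0.229). Leaving out Gent replicate 1 brought this difference to 0.32 and leaving out Gent replicate 2 to 0.64, the lowest and highest over the libraries. With the length trend removed it was 0.41, and the groups then overlapped. Dll3 over Dll1 did not overlap either and was lower in Gent+Fos OE by -1.38 on the log2 scale (exact permutation p = 0.0857, adjusted p = 0.343). The other 6 ratios overlapped between the groups. Notch3 over Notch2 differed by 0.44 (adjusted p = 0.366, exact test), by 0.15 without Gent replicate 1 and by 0.76, without overlap, when Gent replicate 2 was left out. Notch3 over Notch1 differed by -0.07 (adjusted p = 0.857, exact test). Among ligands, Jag2 over Jag1 differed by -0.33, Dll1 over Jag1 by -0.40, Dll4 over Jag1 by -0.58 and Dll4 over Dll1 by -0.17 on the log2 scale (adjusted p = 0.366 to 0.620, exact tests). Without Gent replicate 2, Jag2 over Jag1 differed by -0.019, Dll1 over Jag1 by -0.26, Dll4 over Jag1 by -0.20 and Dll4 over Dll1 by 0.062. Without Gent replicate 1 they differed by -0.54, -0.47, -0.83 and -0.36, and Dll4 over Jag1 then did not overlap between the groups. None of the 8 passed the adjusted threshold, and with 8 ratios a p at the smallest value the splits allow could pass it only if shared by most of them.

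Genes whose profile over the 7 libraries was most like that of each gene were found by the root mean square difference of log2 CPM about each gene's mean, over 14794 genes whose mean reached 1 CPM. This is a description with no test, and the profiles share the libraries' trends with length. Nearest to Notch1 were Fryl (0.0791), the neuregulin receptor gene Erbb4 (0.0913) and Ppp1r9a (0.107), with exon lengths of 15192, 12355 and 14531 bp. Nearest to Notch2 were the receptor tyrosine phosphatase gene Ptprd (0.0704), Ssh2 (0.0716) and E230014E18Rik (0.0756), of 22822, 18519 and 859 bp. Notch3 was nearest to the kinase genes Mast1 (0.0859) and Cdc42bpg (0.0934) and the monocarboxylate transporter gene Slc16a8 (0.0942), of 6459, 6099 and 2276 bp.

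Jag1 was nearest to the transcription factor genes Zbtb18 (0.0335) and Tcf4 (0.0499), with Jmy (0.0440) between them, and Jag2 to Wnk2 (0.0340), the espin-like gene Espnl (0.0357) and Rab36 (0.0478). The nearest genes were D330041H03Rik (0.0990), Spry4 (0.111), an inhibitor of receptor tyrosine kinase signalling, and Cysrt1 (0.135) for Dll1. For Dll3 they were the bHLH gene Ascl2 (0.210), the quinone reductase gene Nqo1 (0.222) and Arl5c (0.224). For Dll4 they were Upp2 (0.0310), Garin5a (0.0915) and Myzap (0.1002). Among the 8 genes themselves, Notch1 and Notch3 were each other's nearest, at a root mean square difference of 0.183, and the nearest to Dll3 was Dll4 at 0.758.

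The other genes of the pathway were taken from 5 lists by role. Of 43 listed genes, 42 were tested, and edgeR called 0 of them in either direction, where it called 0.134% of all tested genes higher and 0.28% lower. DESeq2 called 0 as well, where it called 3.9% of its tested genes. At an unadjusted edgeR p under 0.05, 3 of the 42 stood higher in Gent+Fos OE (11.1% of all tested genes) and 4 lower (13.4%), and 23 of the 42 had a positive log2 fold change. Their median log2 fold change was 0.04. Over all tested genes 49.9% were positive and the median was -0.001.

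The 9 genes of the nuclear complex all had positive log2 fold changes with all 7 libraries, with a median of 0.26. With the length trend removed 6 of the 9 were positive (median 0.12), where 45.3% of all tested genes were and their median was -0.04, and without Gent replicate 2 it was 7 of the 9 (median 0.16). In both of these fits the log2 fold change of Rbpj was negative, at -0.27 and -0.17. The highest was Maml3, a Mastermind-like coactivator (0.51, SE 0.19, edgeR adjusted p = 0.156), which stood at 0.24 with the length trend removed and at 0.31 without Gent replicate 2, where Spen was highest. The lowest was Rbpj itself (0.05, SE 0.18, adjusted p = 0.889), whose CPM ran from 133 to 137 in Gent+Fos OE and from 89.6 to 163 in Gent. Of the 12 genes that modify or traffic receptors and ligands (median 0.11, and 0.07 with the length trend removed), Mib1, the ubiquitin ligase that ligand endocytosis needs, was highest (0.44, SE 0.21, adjusted p = 0.212). Mib1 stood at 0.19 in either of the other fits, and Neurl1a was highest without Gent replicate 2. Mfng, a Fringe glycosyltransferase that changes which ligands a receptor answers to, was lowest in all 3 fits (-0.40, SE 0.18, adjusted p = 0.203 with all libraries, -0.30 with the length trend removed and -0.22 without Gent replicate 2).

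Of the 10 genes of proteolytic cleavage (median -0.06, and -0.13 with the length trend removed), Adam10, which makes the first ligand-induced cut, was highest (0.30, SE 0.21, edgeR adjusted p = 0.382), and 0.04 without Gent replicate 2, where Furin was highest. Psenen, a gamma-secretase subunit, was lowest (-0.59, SE 0.23, adjusted p = 0.163). It stood at -0.39 with the length trend removed and at -0.20 without Gent replicate 2, and in both Psen2 was lowest instead. The target genes lay close to 0: of 7 listed, 6 were tested, with a median of -0.03 (also with the length trend removed), from Hey2 (-0.16, SE 0.16, adjusted p = 0.557, and -0.28 without Gent replicate 2) to Nrarp (0.10, SE 0.27, adjusted p = 0.847). Hes5, a Notch target of supporting cells, was at most 0.479 CPM in any library and was left out by the filter on low counts. With no filter its log2 fold change was -1.41 (SE 1.04, edgeR adjusted p = 0.465). The 5 other ligands all had negative log2 fold changes (median -0.26; -0.15 and again 0 of 5 positive with the length trend removed, -0.13 and 2 of 5 positive without Gent replicate 2), from Mfap2 (-0.49, SE 0.20, adjusted p = 0.175) to Egfl7 (-0.09, SE 0.20, adjusted p = 0.806). Without Gent replicate 2 these stood at -0.23 and 0.024, and Dlk2 was highest instead (0.086). With the length trend removed, Dlk1 was lowest instead of Mfap2 (-0.47).

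**Figure D5:**
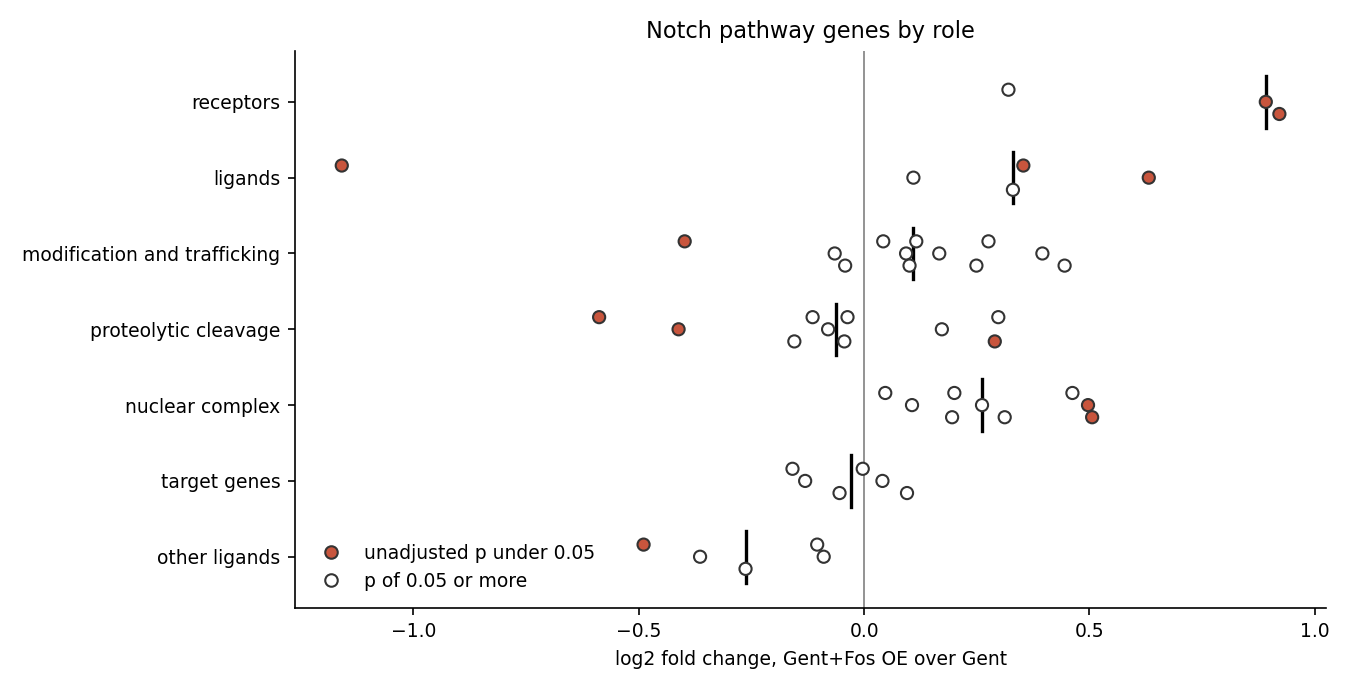
Log2 fold change, Gent+Fos OE over Gent, of the 8 receptor and ligand genes and of the 42 tested genes of the 5 pathway lists, 1 point per gene, offset vertically for legibility, with a bar at each list's median. Filled points have an unadjusted edgeR p under 0.05; Notch1 and Notch3 lie farthest right, Dll3 farthest left, and the target genes lie between -0.16 and 0.10.

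Markers of the cell types in the explants were measured beside these genes. Markers of supporting cells, which carry Notch1 and Jag1, added up to 2017 to 2597 CPM in Gent+Fos OE and 1581 to 1929 CPM in Gent over 10 genes, without overlap, and edgeR called 1 of the 9 tested, the tectorial protein gene Otog (log2 fold change 1.25, edgeR adjusted p = 0.00851), a call lost with the length trend removed (0.94, edgeR adjusted p = 0.0151). Without Otog the other 9 genes added up to 1111 to 1251 CPM and 1136 to 1463 CPM, which overlapped. The median of that list was 0.01, and Tectb, another gene of the list, stood at -1.39 (edgeR adjusted p = 0.0348), and was called without Gent replicate 2 (-1.63, edgeR adjusted p = 0.00413). Markers of hair cells added up to 723 to 919 CPM against 622 to 779 CPM over 12 genes, with overlapping ranges and a median log2 fold change of 0.09 over the 11 tested. Macrophage markers were lower, at 920 to 1536 CPM against 1686 to 2078 CPM over 10 genes, with 1 called by edgeR (Fcgr1, -1.25, edgeR adjusted p = 0.00771). Melanocyte markers were lower too, at 48.9 to 53.3 CPM against 91.6 to 131 CPM over 8 genes, with 2 called by edgeR (Dct and Tyrp1), of which Tyrp1 was not called without Gent replicate 2 (-1.71, edgeR adjusted p = 0.0132). Mesenchymal, neuronal and Schwann cell lists had overlapping sums and 0 genes called by edgeR. DESeq2 called 3 supporting cell markers (Otog and Otogl higher, Tectb lower), 6 macrophage and 6 melanocyte markers, all lower, and 1 Schwann cell marker (Pmp22, lower). It called 0 of the mesenchymal and neuronal lists. Of all the genes each tested, edgeR called 0.414% and DESeq2 3.9% in either direction. No marker was at 0 in every library, and Hes5, Ocm, Cldn5, Kcnj8, Higd1b and Prph were under 1 CPM throughout. Some genes stand in 2 lists (Hes5 and Lfng in the pathway and supporting cell lists, Egfl7 in the other ligands and the endothelium). The part of these shifts in the Notch values was not tested.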

How the data were processed

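Libraries were made from total RNA of 7 pools of utricle explants and grouped by the sample labels into Gent+Fos OE (4) and Gent (3). The study's methods state 3 replicates per condition, so all 7 were used. The deposited values are raw read counts per gene, made by the authors with featureCounts 2.0.6 on an mm10 annotation per the file headers, without strand or multi-mapping reads and with both reads of a pair counted. The submitters' processing notes name Trim Galore 0.6.10, HISAT2 2.2.1, featureCounts 2.0.6, DESeq2 1.34.0 and mm10, and the study's methods name mm39. Coordinates are those of the files.

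Differences were fitted with edgeR 4.0.16 under R 4.3.3 (filterByExpr, TMM, quasi-likelihood F-test, Benjamini-Hochberg adjustment over all 17155 genes), and the study's limits for a call were kept (adjusted p under 0.01, log2 fold change beyond 0.25 either way). DESeq2 1.42.0 and limma 3.58.1 were alternatives, beside RLE and upper quartile scaling, other filters (none, or 10 counts or more in all libraries), removal of the trend with gene length by loess (span 0.3), a block for replicate number, and leaving out each library. Single genes and ratios were compared by two-sided exact permutation tests of log2 CPM (prior count 2), and levels by sign flips over libraries (smallest p 0.0156). The prior count shrinks log2 differences of low genes such as Dll3 and Dll4. Python 3.11.15 with pandas 2.3.3, scipy 1.17.1 and matplotlib 3.10.9 did the rest.

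Replicates of a group differed by 16.8 to 139 in chi-square per degree of freedom, far more than sampling of reads alone would give. The precision thus rests on the spread between pools, and for Dll3 and Dll4 also on depth. Symbols came from GENCODE by Ensembl ID, lengths from the files, and promoter windows from RefSeq on GRCm38. The named genes are the 8 receptors and ligands, the highest and lowest gene of each pathway list, Fos, and the 3 genes nearest in profile; marker genes were named where called (1 result is not reported here) or, for Acta2, Abcc9, Flt1, Cdh5, Tectb and Pmp22, after their values were seen, as were the marker sums without Acta2 or Otog. The members, lists and motifs were chosen with earlier results of these data known.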

Additional observations from a re-analysis of the deposited data

How the results depend on the processing

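Of 17155 tested genes, edgeR called 23 higher and 48 lower with all libraries, against 275 and 336 in DESeq2, 63 and 141 with no filter, 35 and 95 with the gene length correction, 45 and 93 without Gent replicate 2, 48 and 127 with both of these (chosen after seeing the data), 6 and 15, 9 and 15, 2 and 3, and 7 and 12 without Gent+Fos OE replicate 1, 2, 3 or 4, and 3 and 12 without Gent replicate 3. Of the 8 genes, 0 were called by edgeR and 0 with any library left out, 2 by DESeq2 (Notch1, 0.93, and Notch3, 0.90) and 1 with no filter (Notch3, 0.89, adjusted p = 0.00632). Over these fits the adjusted p of Notch3 ran from 3.55e-05 to 0.0909, that of Notch1 from 0.00166 to 0.161 and that of Jag1 from 0.0295 to 0.248. The sign turned for Dll4 (-0.049 without Gent+Fos OE replicate 2, -0.021 without Gent replicate 1; -0.049 to 0.23 with each library left out), for Notch2 (-0.10 without Gent replicate 2 and with the length correction), for Notch3 over Notch1 (0.13 with the length correction, 0.12 without Gent replicate 2; -0.18 to 0.12) and for Dll4 over Dll1 (0.062 without Gent replicate 2; -0.37 to 0.062); the cause was not tested. With each library left out, log2 fold changes ran from 0.71 to 1.07 for Notch1, 0.02 to 0.71 for Notch2, 0.81 to 0.99 for Notch3, 0.41 to 0.77 for Jag1, 0.27 to 0.42 for Jag2, 0.10 to 0.49 for Dll1 and -1.41 to -1.02 for Dll3. Of the 7 neighbour pairs in the order of levels, 3 passed, 0 with the longest transcript length, and 0 with each library left out, where 6 libraries allow no p below 0.0312 before adjustment. Dll3 has no value in the fit with at least 10 counts in every library, which drops it.

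The replicate numbers did not pair the libraries: deviations of Gent+Fos OE and Gent libraries with the same number correlated at 0.064, -0.038 and 0.032, and not every library correlated best with its own number. With a replicate block, edgeR called 0 genes (71 without), and the log2 fold changes of Notch1 and Notch3 were 1.03 (adjusted p = 0.133) and 0.98 (adjusted p = 0.0731). With the block and the gene length correction together, edgeR called 17 genes higher and 31 lower. Notch1 and Notch3 then stood at 0.61 (edgeR adjusted p = 0.0800) and 0.77 (edgeR adjusted p = 0.0303), and neither was called. Dll3 and Dll4, at 9 to 39 counts a library, are limited by depth.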
